A study of Mus musculus with 2 samples.

Results

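The probes described here detect 10 mature microRNAs of the miR-466, miR-467, miR-669 and miR-297 families, whose genes lie in the mouse gene Sfmbt2. They were selected by miRBase accession, 1 table row per accession, and make up 10 of the 739 rows of the array. The members were chosen with their measured values in view, so their intensities are given as a description and carry no test. The names miR-466a-3p, miR-466g, miR-466h-5p, miR-467a-5p, miR-467a-3p, miR-467b-3p, miR-669a-5p, miR-669b-5p, miR-669c-5p and miR-297a-5p came with that selection, since the table holds accessions alone.

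The levels were measured with 1 one-colour array for each of 2 mouse epidermal keratinocyte lines of Balb/c strain. Pam212 transformed spontaneously and is described as non-metastatic, and LY-1 is a metastatic line derived from it. Both were untreated and confluent in DMEM with 10% FCS, and total RNA from 1 plate of each line was labelled with the dye Hy5. Each group is therefore 1 culture of 1 line, with no replicate, and a higher level per cell cannot be told apart from a larger share of expressing cells. Keratinocyte marker miRNAs could not be checked, because no source used here pairs their names with the accessions in the table.

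MicroRNAs are short RNAs that guide Argonaute proteins to messenger RNAs, which are then translated less or degraded, with most of the pairing made by the seed near the 5′ end. Sfmbt2 encodes a Polycomb group protein. In the mouse the gene is imprinted and expressed from the paternal copy in the trophoblast, where one of its introns carries a large tandem array of miRNA genes that is needed for normal growth of the placenta. The array is known from rodents, and its members derive from repeats of simple sequence, so many of them resemble each other closely.

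In the RefSeq annotation of GRCm38.p6, 72 miRNA genes lie within the limits of Sfmbt2 on chromosome 2, and all 72 belong to these 4 families. They comprise 29 genes of miR-669, 24 of miR-466, 14 of miR-467 and 5 of miR-297, and 10 more genes of the same families lie elsewhere. The order is itself repetitive. Of the 14 miR-467 genes, 14 are followed by a miR-466 gene, and for 12 of them the gene after that is of miR-669. The mature miRNAs measured here differ in how many gene copies can supply them. miR-467a has 10 copies in Sfmbt2 and miR-669a has 12. miR-466a, miR-466g, miR-466h, miR-467b, miR-669b and miR-669c have 1 each, and miR-466g and miR-466h occupy neighbouring places. miR-297a has 3 copies within Sfmbt2 and 1 on another chromosome, so its signal need not come from the cluster alone.

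**Figure D1:**
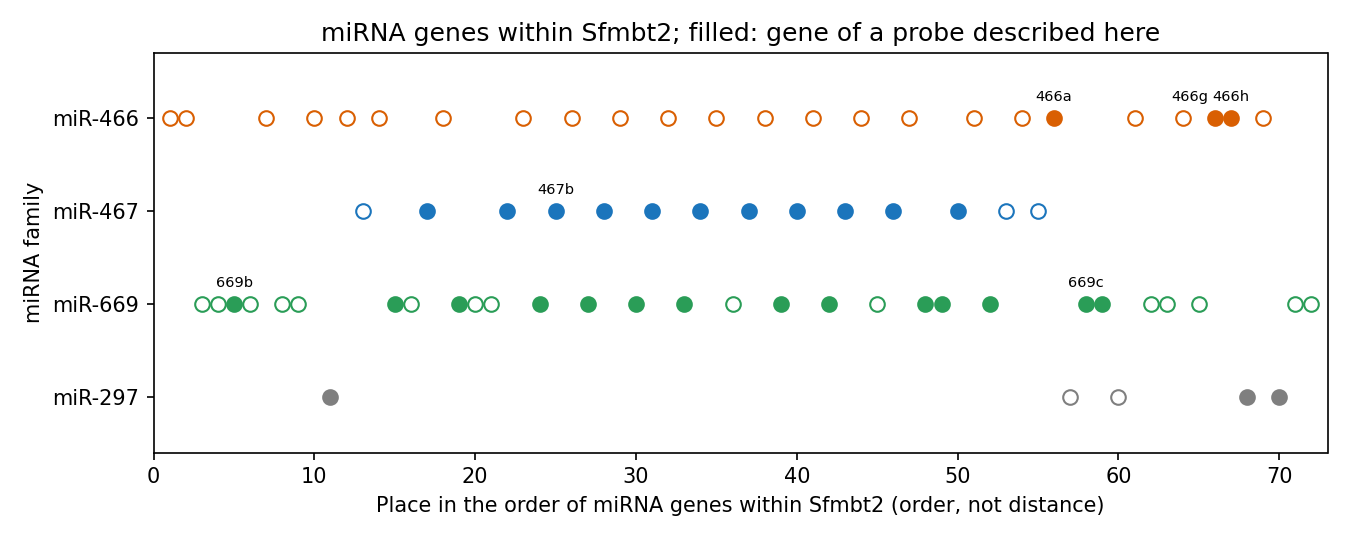
Order of the 72 miRNA genes within Sfmbt2 in the RefSeq annotation of GRCm38.p6, with 1 row per family and each gene drawn at its place in the order, not to distance. Filled circles are genes of the miRNAs described here, and those with 1 copy are labelled. The unlabelled filled genes are the 10 of miR-467a, the 12 of miR-669a and the 3 of miR-297a.

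The copy of miR-297a outside the cluster, Mir297-1, lies at chr7:10958437-10958512 on the minus strand (RefSeq, GRCm38.p6). Its hairpin is shown because it displays the repeat character of these genes. Capitals mark the longest run in which purines and pyrimidines alternate, which spans 50 of its 76 bases.
Mir297-1 hairpin: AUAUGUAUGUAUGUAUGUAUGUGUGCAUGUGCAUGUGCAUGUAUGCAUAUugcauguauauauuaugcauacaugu

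The same feature occurs in relatives of the cluster at other loci, of which 8 mature sequences from RefSeq were used. Any family entries on a further chromosome were left out of this set, but not out of the whole table compared below. The 8 are printed to show the 2 kinds of repeat in these families, one of C and A and one of U and G. The seed (bases 2 to 8) is in capitals.
miR-466q (chromosome 3): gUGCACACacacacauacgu
miR-466i-3p (chromosome 13): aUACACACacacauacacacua
miR-467f (chromosome 11): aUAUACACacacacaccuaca
miR-467g (chromosome 5): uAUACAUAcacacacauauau
miR-466k (chromosome 3): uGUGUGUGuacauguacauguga
miR-466j (chromosome 10): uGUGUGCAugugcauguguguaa
miR-467h (chromosome 9): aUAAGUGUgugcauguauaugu
miR-669n (chromosome 3): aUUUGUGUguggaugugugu

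The 8 relatives have 8 different seeds, although 6 of the seeds consist of strictly alternating purines and pyrimidines. An alternating run of at least 12 bases occurs in 7 of these 8 sequences. Any family sequence left out has a shorter run, so counting it would lower this share. Among all 1738 mature sequences of the table it occurs in 10 (0.575%), so these families supply 7 of the 10. The median of the longest run was 20 bases in the 8 printed relatives and 4 in the whole table. These sequences are of relatives and not of the 10 miRNAs measured. How far the array probes separate such similar sequences was not tested.

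On the arrays, most of the cluster probes were dim, and those measured in both lines were brighter in LY-1. Of the 10 probes, 6 had a value on both arrays, 2 in LY-1 only, 1 in Pam212 only and 1 on neither. Over all 739 rows those shares were 47.9%, 11.2%, 14.3% and 26.5%. Intensities of the cluster ran from 0.943 to 3.57 in the 7 probes measured in Pam212, with a median of 1.58. In the 8 probes measured in LY-1 they ran from 1.63 to 15.5, with a median of 3.11. For scale, the lowest intensities reported were 0.943 for Pam212 and 0.948 for LY-1, and the median of all values pooled over both arrays was 2.26. This pooled median served as the floor for counts. In Pam212, 1 of the 10 probes reached the floor, and in LY-1 7 of 10 did. Over all rows the shares at or above the floor were alike, 29.9% in Pam212 and 30.9% in LY-1.

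**Figure D2:**
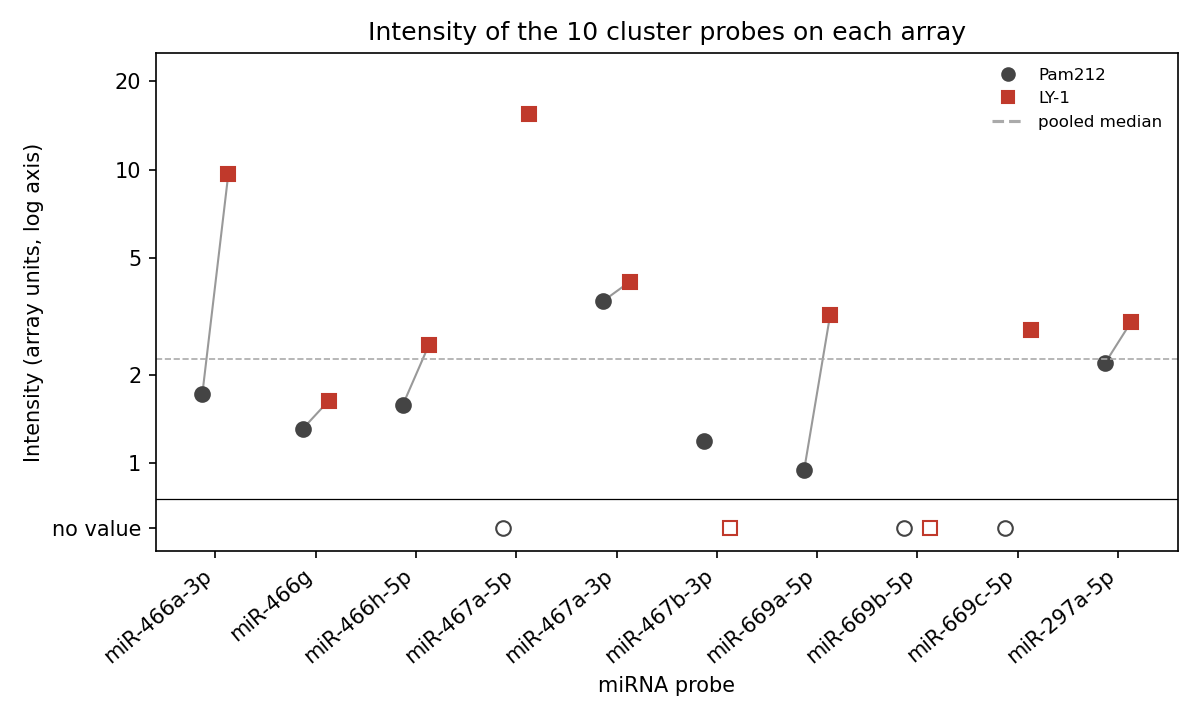
Intensity of each of the 10 cluster probes in Pam212 (circles) and LY-1 (squares), on a log axis in array units, with 1 array per line and no error bars. Open symbols in the lower strip are cells without a value, and the dashed line is the pooled median of 2.26. The LY-1 symbol lies above that of Pam212 in each of the 6 probes measured on both arrays.

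The miR-466 probes were measured in both lines. The row of miR-466a-3p (MIMAT0002107) carried 3 further accessions, so its signal belongs to up to 4 mature miRNAs. Its intensity was 1.71 for Pam212 and 9.69 for LY-1, which is 5.66-fold higher in LY-1, or 2.50 on the log2 scale. Of the 6 cluster probes measured on both arrays this one differed most, and ordered from the highest LY-1 excess it ranked 3 of the 252 probes that were measured on both arrays and reached the floor on at least 1. miR-466h-5p (MIMAT0004884), reported to promote apoptosis in mouse and Chinese hamster cells, had 1.58 for Pam212 and 2.53 for LY-1, 1.60-fold higher. Its neighbour in the gene order, miR-466g (MIMAT0004883), had 1.30 for Pam212 and 1.63 for LY-1, 1.25-fold higher, with both values below the floor. All 3 probes were thus brighter in LY-1, and the row with several accessions alone passed 2-fold.

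The miR-467 probes gave different pictures for different mature forms. miR-467a-5p (MIMAT0003409) had an empty cell for Pam212 and 15.5 for LY-1, well above the floor. No fold can be given for it, because what an empty cell stands for is stated neither in the labels nor in the table. miR-467a-3p (MIMAT0002108) comes from the other arm of the same hairpins, and its row also carries a second accession. It read 3.57 for Pam212 and 4.14 for LY-1, 1.16-fold higher. The arms of miR-467a therefore differed in whether Pam212 had a value at all, while in LY-1 both were above the floor. miR-467b-3p (MIMAT0003478) ran the other way, with 1.18 for Pam212 and an empty cell for LY-1. That reading was below the floor and not far above the lowest of its array.

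Readings of the miR-669 probes were close to the floor or below it, where they existed. The intensity of miR-669a-5p (MIMAT0003477) was 0.943 for Pam212 and 3.20 for LY-1, which is 3.39-fold higher in LY-1, or 1.76 on the log2 scale, and it ranked 11 of the 252 in the same order. In the mouse, miR-669a has been reported to restrain skeletal muscle differentiation of cardiac progenitors. Its Pam212 reading was the lowest of the 460 intensities of that array, so the size of this fold depends on how values at the bottom of the scale are treated. miR-669c-5p (MIMAT0003479) had an empty cell for Pam212 and 2.83 for LY-1. miR-669b-5p (MIMAT0003476) had no value on either array. The single miR-297 probe, miR-297a-5p (MIMAT0000375), had 2.19 for Pam212 and 3.02 for LY-1, 1.38-fold higher.

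Set beside the whole array, the chosen cluster probes leant towards LY-1. Rows for the other genes of these families in Sfmbt2 could not be named, so the lean is not shown for the whole cluster. Of the unnamed rows with neighbouring numbers described at the end, 3 were measured on both arrays, and 1 was higher in LY-1 and 2 were lower. All 6 probes measured on both arrays were higher in LY-1 by some amount, where 49.7% of all 354 such probes were. With the floor applied, 5 cluster probes remained and 5 were higher, where 51.6% of all 252 were. At least 2-fold higher were 2 of these 5, miR-466a-3p and miR-669a-5p, against 12.7% of all probes past the floor, and 0 of 5 were at least 2-fold lower, against 6.35%. Counted without the floor, the same 2 of 6 were higher and 0 of 6 lower, against 9.32% and 5.65% of the 354. The median log2 difference was 0.68 over the 5 cluster probes past the floor and 0.03 over all 252. Without the floor it was 0.57 over 6 cluster probes and 0.00 over all 354. The cluster count of 2 rests on few probes, of which 1 row pools several miRNAs, and 4 of the 5 had a Pam212 value below the floor and passed it by their LY-1 value. No p-value can be given with 1 array per line. Because the members were picked with these values known, the contrast with the array is a description.

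**Figure D3:**
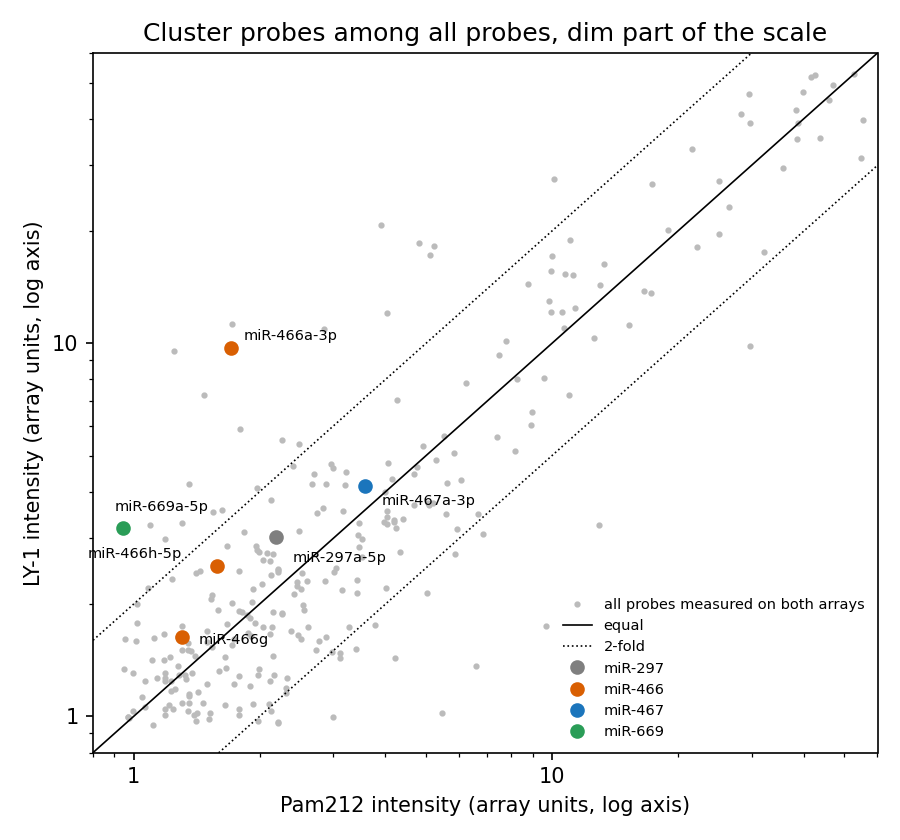
Intensity in LY-1 against Pam212 on log axes for the probes measured on both arrays, limited to the dim part of the scale where the cluster lies. The 6 cluster probes are coloured by family, the solid line marks equal intensity and the dotted lines 2-fold. All 6 lie above the line of equality, and miR-466a-3p and miR-669a-5p lie beyond 2-fold.

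Probes with a value in LY-1 only that also reached the floor were rare on the array. They numbered 7 of 739 rows (0.947%), and 2 of the 7 were among the chosen probes, miR-467a-5p and miR-669c-5p. No chosen probe was among the 4 rows with a value in Pam212 only that reached the floor. The members were chosen with these values known, so both counts are a description and show no enrichment. Per line, the summed intensity of the 6 cluster probes measured on both arrays came to 11.3 for Pam212 and 24.2 for LY-1, while over all 354 such probes it came to 91209 and 86358. Without the row of miR-466a-3p, which pools 4 accessions, the sums of the other 5 were 9.58 and 14.5. Sums over all probes rest on bright ones and say little about dim probes. The highest single intensities were 51458.5 for Pam212 and 51140.3 for LY-1.

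The differences are listed here by number of gene copies, and a relation between copies and differences was not tested. Of the miRNAs with many copies, miR-669a-5p differed 3.39-fold and miR-467a-5p had a value in LY-1 only. The row of miR-467a-3p, which carries a second accession, differed 1.16-fold. miR-297a-5p, with 3 copies within Sfmbt2 and 1 elsewhere, differed 1.38-fold. Of those with 1 copy that were measured on both arrays, miR-466g and miR-466h-5p differed 1.25-fold and 1.60-fold, and the row of miR-466a-3p differed 5.66-fold, with the caution that its other accessions may have further copies. miR-669c-5p, also from 1 gene, had a value in LY-1 only. miR-467b-3p and miR-669b-5p, whose single genes stand at places 25 and 5 of 72, had no value in LY-1. The gene of miR-467b stands among the copies of miR-467a, which span places 17 to 50. The genes of miR-466a and miR-669c stand close together at places 56 and 58, but the pooled row of miR-466a-3p cannot be assigned to place 56 alone. A relation between place and level was not tested.

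Scaling the arrays in other ways left each of the 6 differences positive. The log2 difference of miR-466a-3p ran from 2.39 to 2.60 over the values as deposited and 4 scalings, and that of miR-669a-5p from 1.72 to 1.86. The 4 smaller differences stayed between 0.17 and 0.76. Adding a constant to both values shrank the differences, as it must for dim probes: with 1.02 units added, miR-466a-3p stood at 1.97 and miR-669a-5p at 1.10. With 2.26 units added they stood at 1.59 and 0.77, so that miR-669a-5p no longer passed 2-fold.

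**Figure D4:**
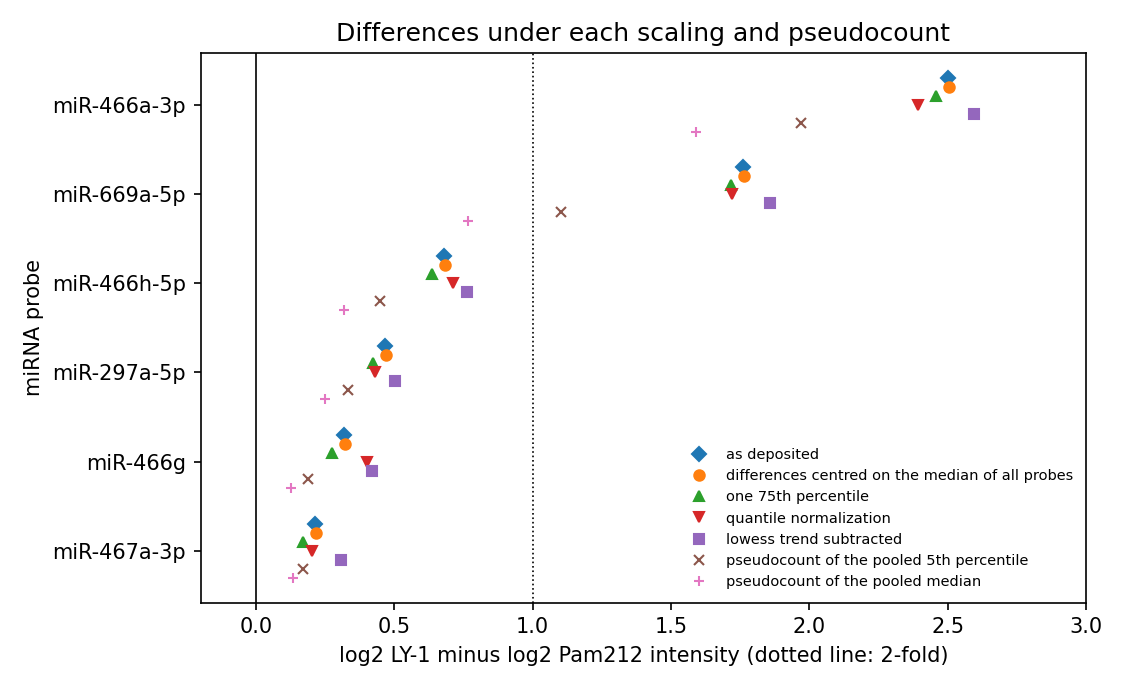
Log2 difference (LY-1 minus Pam212) of the 6 cluster probes measured on both arrays, with the values as deposited, under 4 scalings and with 2 pseudocounts. The dotted line marks 2-fold. Scaling moves the points little, while the pseudocounts pull miR-466a-3p to 1.59 and miR-669a-5p to 0.77 at the larger constant. All points stay above 0, which adding a constant to both values cannot change.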

How the data were processed

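The deposited table holds 1 linear intensity per probe and array, per the file headers. The total RNA was Hy5-labelled with the miRCURY LNA kit, per the labels' protocols. Scanning, background correction, combining of duplicate spots, scaling and the rule for empty cells are not given in the sources used here. Array number limits the precision: with 1 array per line no error, p-value or replicate check exists.

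Differences are log2 LY-1 minus log2 Pam212 intensity on the values as deposited, without pseudocount, for rows measured on both arrays. Counts required the brighter value to reach the pooled median (2.26), and called 2-fold a size threshold. A row with several accessions was counted once. All 10 members are named. The members, gene lists and tests were chosen with earlier results of these data known. Marker miRNAs, further family probes, comparison clusters and most similar probes, planned by name, were not analysed, because the RefSeq tables (GRCm38.p6) hold no miRBase accessions. Genes were placed by RefSeq order. Python 3.11.15, numpy 2.4.6, pandas 2.3.3, statsmodels 0.14.6 and matplotlib 3.10.9 were used, and the calculation of differences was tested on simulated data. Alternatives changed the scaling, pseudocount, floor, threshold and rows of several accessions.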

Additional observations from a re-analysis of the deposited data

How the results depend on the processing

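The count of cluster probes past 2-fold in favour of LY-1 was 2 as deposited and also under the 4 scalings, the smaller pseudocount, no floor and a 3-fold threshold. At a 1.5-fold threshold it was 3, with miR-466h-5p added. It became 1 with the pooled median as pseudocount, an alternative added after seeing the data, 1 without rows of several accessions, which leaves 3 cluster probes, and 0 of 1 with both values at the floor. The count of lower probes was 0 throughout. The median log2 difference of 0.68 became 0.45 with the 5th-percentile pseudocount, 0.32 with the pooled median, 0.57 without a floor and 0.21 with both values at the floor, where miR-467a-3p alone is left. Of 36 values for single probes, 12 moved by at least 0.1 on the log2 scale and 0 changed sign. Adding the same constant to both values cannot change a sign, so the values with a pseudocount do not bear on direction. Probes with a value on 1 array numbered 3, and 2 at or above the floor. Low signal limits all these values, since the readings lie near the bottom of the scale. No paired analysis was possible because each line has 1 array, and leaving out a replicate was not possible for the same reason.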

Other observations

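The table holds 6 further rows whose accession numbers fall between those carried by the rows of miR-466a-3p and miR-467a-3p. No source used here names them, and they were looked at after the cluster values were seen. MIMAT0004877 had 1.31 for Pam212 and 3.30 for LY-1, 1.34 higher on the log2 scale. MIMAT0004881 read 4.02 and 3.43, a difference of -0.23, and MIMAT0004882 read 3.05 and 2.50, a difference of -0.28. MIMAT0004885 had a value in LY-1 only, 1.72, and the other 2 rows had none. Among the 3 measured on both arrays, 1 was higher in LY-1 and 2 were lower, so the lean towards LY-1 of the cluster probes was not shared by all rows with neighbouring numbers.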
